A study of Mus musculus with 6 samples.

Results

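The genes described here are 8 members of the paired receptor families of myeloid cells and 1 of their ligands, 9 genes in all, namely *Sirpa*, *Sirpb1a*, *Sirpb1b*, *Sirpb1c*, *Cd47*, *Pirb*, *Pilra*, *Cd300a* and *Cd300lf*. They were taken by gene symbol from a table of 56748 genes, and all 9 were among the 17146 genes with enough reads to be tested. The data are bulk RNA sequencing of primary osteocytes that were isolated from long bones and cultured for 7 days. The methods give an age of 7 weeks and C57BL/6 mice for the isolation, and for the stimulated cells C57BL/6J mice beside mice named only as *Gsdmd*-deficient. There were 3 WT libraries and 3 libraries labelled cKO. The conditional line that the methods describe carries the alleles *Gsdmd* fl/fl with DMP1-Cre, in which Cre is driven by the promoter of dentin matrix protein 1 and therefore acts in cells that use that promoter. Both groups received lipopolysaccharide (LPS) at 10 ng/mL for 3 h and then aluminum hydroxide at 20 µg/mL for 3 h. No unstimulated library was analysed here, so the comparison is between genotypes under stimulation.

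Paired receptors are sets of closely related membrane proteins in which some members inhibit and others activate the cell. Inhibitory members such as SIRPα, PIR-B, PILRα, CD300a and CD300lf carry tyrosine motifs in their tails that recruit the phosphatases SHP-1 and SHP-2, whereas activating members such as the SIRPβ1 and PIR-A proteins have short tails and signal through the adapters DAP12 (*Tyrobp*) or the Fc receptor γ chain (*Fcer1g*). SIRPα binds CD47, a protein found on nearly all cells, and this contact restrains phagocytosis. In bone, the SIRPα and CD47 pair is known from the fusion of macrophages and osteoclasts.

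*Gsdmd* itself had 609, 699 and 549 counts in WT and 885, 937 and 1045 counts in the cKO-labelled libraries. It was therefore higher, not lower, where the label says that it was deleted (log2 fold change 0.69, SE 0.083, adjusted p = 2.27e-06 by the quasi-likelihood test of edgeR, adjusted after Benjamini and Hochberg over all tested genes, as are the other adjusted p-values), and whole-gene counts cannot show the loss of single exons. Library totals lay between 39566835 and 49734046 counts. *Xist* had 0 to 4 counts in WT and 44817 to 51216 in the other group, and the Y-linked *Ddx3y* was at 0 only in the latter, so sex and genotype cannot be told apart in any comparison between the groups. The methods describe the mice as matched for age and sex, whereas these sex-linked counts differ between the groups. Osteocyte markers other than *Pdpn* were scarce in both groups. *Sost* was at 0 in all 6 libraries (which allows up to 3 counts in each if every read pair was counted once). *Dmp1* held 0 to 6 counts, *Mepe* at most 2 and *Phex* 2 to 22. *Fgf23* held 14, 34 and 8 counts in WT and 6, 0 and 0 in the other group. Of the 6 markers examined, *Pdpn* alone had enough counts to be tested. It was abundant, at 233.8 ± 7.59 CPM in WT and 193.0 ± 3.57 CPM in the cKO-labelled libraries (log2 fold change -0.28, adjusted p = 3.0e-05). The labels do not say whether the replicates came from separate mice or cultures, so p-values measure only the spread between these libraries. Throughout, directions are given for the cKO-labelled libraries relative to WT.

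Of the 9 genes, 8 were higher in the cKO-labelled libraries, with fold changes from 3.06 for *Cd300lf* upward, and 0 were lower. The one that did not pass was *Cd47*, the ligand of SIRPα. A gene was called higher when its adjusted p was under 0.05 and its log2 fold change at least 1, and lower in the mirrored case. By that rule, 6.56% of all tested genes were called higher and 4.64% lower. For 8 of the 9 genes every cKO-labelled library lay above every WT library, as it did for 25.3% of tested genes. At least 10 counts in every library were found for 7 of the 9, of which 6 were called higher, while *Sirpb1a* and *Sirpb1b* had fewer in some WT libraries. Levels are given as CPM, the counts of a gene per 1000000 counts of the library, with library sizes scaled by the TMM method. The median log2 fold change was 2.73 over the 9 genes and 0.0077 over all tested genes. In a bulk culture, a difference of this kind can come from more cells that express the genes or from more RNA per cell, and these cannot be told apart.

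**Figure D1:**
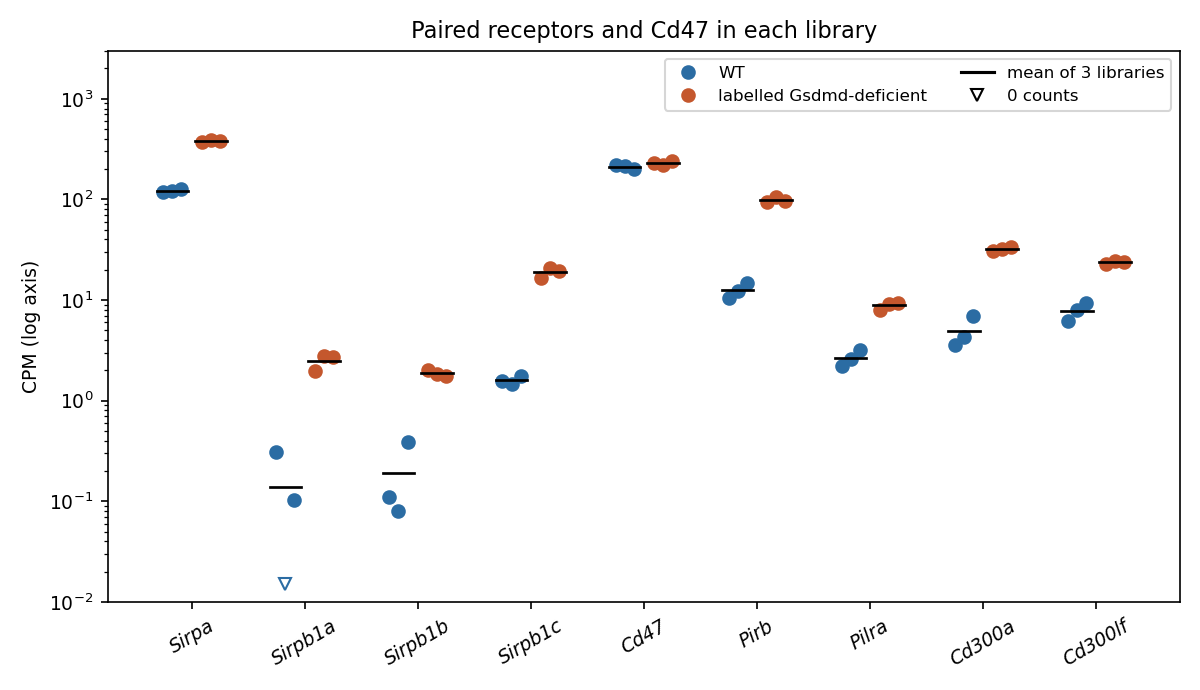
Level of each gene in each library, in CPM on a log axis, with 1 point per library and the group mean. Points of the 2 groups are separate for every gene except *Cd47*, whose values lay between 198.4 and 240.4 CPM in the 6 libraries.

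SIRPα is the inhibitory member of the SIRP family. *Sirpa* (chr2:129434755-129474148, plus strand, mm39) measured 119.5, 120.9 and 126.1 CPM in WT and 369.4, 388.3 and 383.7 CPM in the cKO-labelled libraries. The 3 WT values lay close together and far below the other 3, with no overlap. The means were 122.2 ± 3.49 and 380.4 ± 9.88 CPM (SD, n = 3), a 3.11-fold difference (95% interval 2.93 to 3.31, log2 fold change 1.64, SE 0.042). *Sirpa* ranked 58th of the 17146 genes by p (adjusted p = 2.73e-15), although 4.12% of the tested genes had a larger log2 fold change. Its SE was the smallest of the 9 genes.

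*Cd47* encodes the ligand of SIRPα and is also a receptor for thrombospondin-1. It (chr16:49620896-49735373, plus strand) measured 221.5, 214.2 and 198.4 CPM in WT against 227.7, 217.9 and 240.4 CPM. The groups overlapped, because WT replicate 1 lay above replicate 2 of the other group. The fold was 1.08 (95% interval 1.01 to 1.16, unadjusted p = 0.0332 and adjusted p = 0.0776 by edgeR), so a difference within that interval is not shown to be absent. Of the alternative settings, 2 brought *Cd47* past the threshold, namely scaling by library size only (log2 fold change 0.14, adjusted p = 0.0438) and no filter beyond 1 count (0.12, adjusted p = 0.0385). Over the alternatives its adjusted p ranged from 0.0385 to 0.324.

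The ratio of *Sirpa* to *Cd47* counts within a library needs no scaling between libraries. It was 0.540, 0.564 and 0.636 in WT and 1.62, 1.78 and 1.60 in the cKO-labelled libraries. All 3 WT ratios lay below all 3 others, and the mean difference on the log2 scale was 1.53. With 3 libraries against 3, the exact two-sided permutation test gave p = 0.1, the smallest it can give, also after adjustment over the 3 ratios examined.

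The 3 *Sirpb1* genes lie near each other on chromosome 3, on the minus strand, and encode activating partners of SIRPα that signal through DAP12. Their coding sequences are each 1173 bases long and nearly identical, so that reads may be assigned to the wrong copy or dropped. *Sirpb1a* and *Sirpb1b* differ at 30 of 1173 aligned coding positions (97.4% identity). Over 1150 aligned positions, *Sirpb1a* and *Sirpb1c* differ at 59 (94.9%), and *Sirpb1b* and *Sirpb1c* at 48 (95.8%). Bases that fall in gaps of the alignment are not counted. The identical run is up to 388 bases long, while identity to *Sirpa* over the aligned bases is 70.2% to 70.9%. The coding stretch of 90 bases that differs most among the copies is printed 5′ to 3′ on the coding strand to show how few bases separate them, with the 10 differing positions in capitals. It starts at coding base 177 and was read from GRCm39 at chr3:15482061-15482150 for *Sirpb1a*, chr3:15613815-15613904 for *Sirpb1b* and chr3:15892937-15893026 for *Sirpb1c*.
Sirpb1a: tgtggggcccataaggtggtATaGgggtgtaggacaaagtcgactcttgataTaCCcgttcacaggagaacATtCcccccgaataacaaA
Sirpb1b: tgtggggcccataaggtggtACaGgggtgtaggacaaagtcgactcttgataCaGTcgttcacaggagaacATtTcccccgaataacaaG
Sirpb1c: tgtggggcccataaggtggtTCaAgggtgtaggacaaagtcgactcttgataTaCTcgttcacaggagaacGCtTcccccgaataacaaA
In this stretch *Sirpb1a* has its own base at 3 positions, *Sirpb1b* at 3 and *Sirpb1c* at 4, so a read through it can be told apart only by a handful of mismatches.

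Reads were 150 bases long, so each canonical transcript in GENCODE M39 was split into all stretches of that length and each stretch was looked up in the transcripts of other genes. Of the stretches, 87.9% of *Sirpb1a*, 67.7% of *Sirpb1b* and 76.0% of *Sirpb1c* occurred in no other gene. A single read from the other stretches of these genes cannot be placed by its own sequence alone. Whether the other read of its pair would place it was not examined. *Sirpa*, *Cd300a* and *Cd300lf* had 100% unique stretches. *Cd47* had 91.3%, *Pilra* 88.2% and *Pirb* 83.2%, the last sharing stretches with *Pira1*, *Pira2*, *Pira12*, *Pira13* and *Lilra6*.

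**Figure D2:**
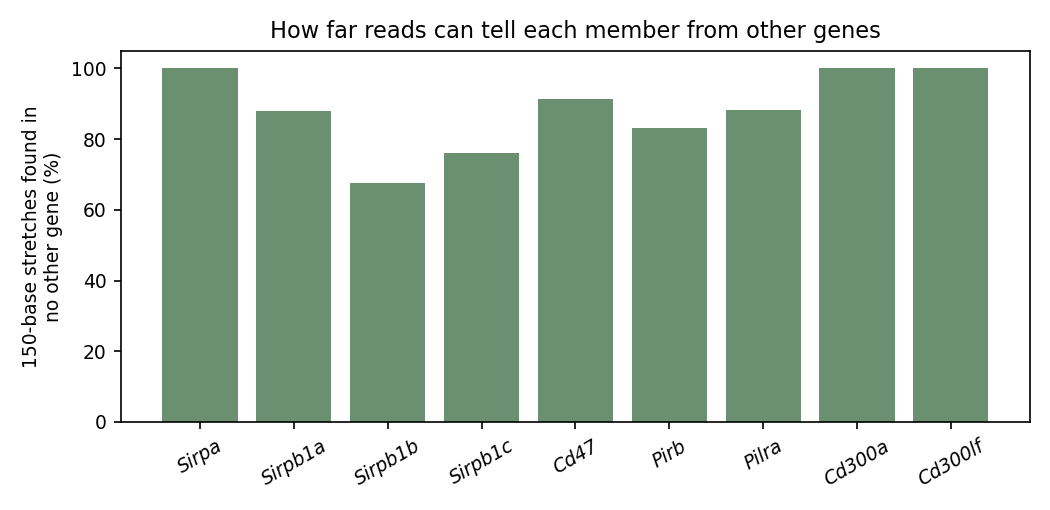
Percent of 150-base stretches of each gene's canonical transcript that occur in the transcript of no other gene. *Sirpa*, *Cd300a* and *Cd300lf* are at 100%, and *Sirpb1b* is the lowest of the 9 at 67.7%.

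Among the *Sirpb1* copies, *Sirpb1c* (chr3:15849309-15902692) held the most counts. It had 70, 72 and 69 counts in WT and 691, 819 and 889 counts in the cKO-labelled libraries, or 1.59 ± 0.167 and 18.9 ± 2.18 CPM. The WT libraries were nearly equal and the groups were far apart, with a fold of 11.9 (log2 fold change 3.57, SE 0.14, adjusted p = 7.75e-13, edgeR's quasi-likelihood test).

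*Sirpb1a* (chr3:15436713-15491580) was close to the limit of counting in WT, with 14, 0 and 4 counts against 83, 111 and 124. WT replicate 1 held most of the WT counts, and all 3 other libraries lay well above it. The log2 fold change was 4.17 (SE 0.56, adjusted p = 9.49e-06) and depended on single WT libraries, being 5.66 without WT replicate 1 and 3.53 without WT replicate 2. *Sirpb1b* (chr3:15560811-15640125) had 5, 4 and 15 counts in WT and 84, 74 and 79 in the other group. Here WT replicate 3 was the highest, again far below the other group, and the log2 fold change of 3.32 (SE 0.48, adjusted p = 2.11e-05) became 4.25 without it. Both genes passed the threshold in each of these cases.

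Summing the copies avoids the question of how reads were split among them. Together they held 89, 76 and 88 counts in WT and 858, 1004 and 1092 in the cKO-labelled libraries. The sums were alike within a group and did not overlap between groups, with a log2 fold change of 3.60 (SE 0.14, adjusted p = 7.28e-13). *Sirpb1c* supplied 83.4% of the summed counts in WT and 81.2% in the other group. Set against *Sirpa* in the same library, the summed copies made up 0.0166, 0.0127 and 0.0180 counts per *Sirpa* count in WT and 0.0552, 0.0650 and 0.0627 in the other group. All 3 WT ratios lay below the other 3, by 3.91-fold on average, although the exact two-sided permutation test could go no lower than p = 0.1, which it reached.

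PIR-B is an inhibitory receptor for major histocompatibility complex class I molecules. *Pirb* (chr7:3714408-3723390, minus strand) measured 10.5, 12.2 and 14.8 CPM in WT and 95.1, 104.5 and 96.1 CPM in the cKO-labelled libraries. WT replicate 3 was the highest of its group but still far below the lowest of the other group. The fold was 7.91 (log2 fold change 2.98, SE 0.087, adjusted p = 1.56e-14).

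The coding sequence of *Pirb* has 2523 bases, of which 1989 to 2039 align to the 4 activating *Pira* genes *Pira1*, *Pira2*, *Pira12* and *Pira13*. Over these aligned bases it is 95.2% to 96.0% identical to theirs. The identical run is up to 523 bases long, so the count of *Pirb* may include reads of the *Pira* genes. The 5 genes summed to 583, 710 and 672 counts in WT and 4808, 4956 and 5089 in the cKO-labelled libraries. Their sum had the same log2 fold change as *Pirb*, 2.98 (SE 0.081, adjusted p = 6.45e-15), and *Pirb* supplied 84.2% of it in WT and 84.3% in the other group. The share of the counts assigned to the inhibitory gene was therefore nearly equal in the 2 groups.

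PILRα is an inhibitory receptor for certain sialylated glycoproteins. *Pilra* (chr5:137820214-137834543, minus strand) measured 2.20, 2.60 and 3.19 CPM in WT and 8.01, 9.20 and 9.36 CPM in the other group. The groups did not overlap and the fold was 3.33 (log2 fold change 1.74, SE 0.16, adjusted p = 1.28e-07). The gene overlaps *Zcwpw1* on the opposite strand, which held at most 163 counts. *Pilra* itself had only 99, 129 and 124 counts in WT and 337, 366 and 425 in the cKO-labelled libraries. The 11.8% of its 150-base stretches that were not unique were shared with *Zcwpw1*. The strand setting of the counting was not given in the sources used here, so reads in the overlap cannot be assigned with certainty. Their part in the WT level and the fold was not tested. The genes that overlap *Cd47*, *Cd300lf* and *Sirpb1b* held at most 62, 25 and 5 counts.

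CD300a and CD300lf are inhibitory receptors that bind lipids exposed on dying cells, and their genes lie near each other on chromosome 11. *Cd300a* (chr11:114780867-114795480, plus strand) measured 3.58, 4.27 and 6.90 CPM in WT and 30.6, 32.3 and 33.7 CPM in the cKO-labelled libraries. WT replicate 3 stood somewhat above the other WT libraries, and the groups were well apart. The fold was 6.61 (log2 fold change 2.73, SE 0.16, adjusted p = 1.47e-10). *Cd300lf* (chr11:115007040-115024818, minus strand) measured 6.13, 7.88 and 9.25 CPM in WT and 22.8, 24.4 and 23.7 CPM in the other group. It too did not overlap between groups, and its fold was 3.06 (log2 fold change 1.61, SE 0.12, adjusted p = 4.42e-09).

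The pair was also compared within each library. *Cd300lf* counts per *Cd300a* count were 1.71, 1.84 and 1.34 in WT and 0.744, 0.756 and 0.704 in the cKO-labelled libraries. Counts of *Cd300lf* thus exceeded those of *Cd300a* in all 3 WT libraries and were below them in the other 3, with a log2 difference of the ratio of -1.14 (exact two-sided permutation p = 0.1, the smallest possible). The coding sequences of the pair are 66.7% identical with no identical run over 11 bases. Neither canonical transcript shares a 150-base stretch with the transcripts of another gene.

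**Figure D3:**
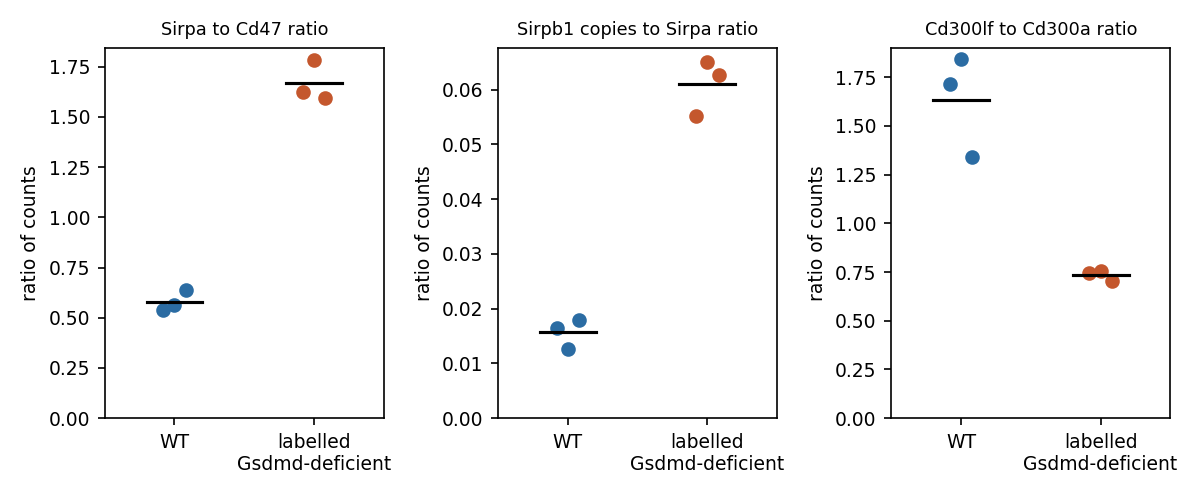
Ratio of counts between members in each library, on a linear axis, with 1 point per library. In each of the 3 ratios the groups are separate, with *Sirpa* to *Cd47* and *Sirpb1* copies to *Sirpa* higher and *Cd300lf* to *Cd300a* lower in the cKO-labelled libraries.

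Levels of different genes were compared per kilobase of the gene length that came with the counts. This length was 6276 bases for *Cd47*, 4911 for *Sirpa*, 5149 for *Cd300lf* and 4738 for *Cd300a*. Their canonical transcripts in GENCODE M39 have 1627, 4566, 1885 and 4645 bases. The order of genes depends on the length used, so the ranks of *Cd47* and *Cd300lf* are uncertain. The order by transcript length was not examined. In WT, *Cd47* was highest at 33.7 ± 1.88 CPM per kilobase, followed by *Sirpa* at 24.9 ± 0.710 and *Pirb* at 2.80 ± 0.480. Next came *Cd300lf* at 1.51 ± 0.303, *Cd300a* at 1.04 ± 0.370 and *Pilra* at 0.862 ± 0.162 CPM per kilobase, and neighbours among these 3 overlapped between libraries. The *Sirpb1* copies were lowest in WT, with *Sirpb1c* at 0.433 ± 0.0453 CPM per kilobase and the other 2, which overlapped, under 0.1.

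By the same gene length, the order in the cKO-labelled libraries began with *Sirpa* at 77.5 ± 2.01 CPM per kilobase. *Cd47* at 36.4 ± 1.80 and *Pirb* at 22.0 ± 1.16 came next. *Cd300a* at 6.80 ± 0.330 now stood above *Cd300lf* at 4.59 ± 0.163, and *Sirpb1c* at 5.12 ± 0.591 overlapped with *Cd300lf*. *Pilra* followed at 2.87 ± 0.239, with *Sirpb1a* at 1.09 ± 0.199 and *Sirpb1b* at 0.648 ± 0.0447 CPM per kilobase last.

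The start sites of 8 of the 9 genes matched a RefSeq table of promoters (GRCm38.p6, 300 bases that reach a little past the start), and *Sirpa* had no entry there. The promoters were searched on both strands for GAGGAA, the core bound by PU.1, a factor of myeloid genes, for the AP-1 site TGANTCA and for the NF-κB site GGGANTTCC. Of the 4 promoters that held GAGGAA, 3 are printed to show where the match lies, 5′ to 3′ in the direction of transcription and with the match in capitals (TTCCTC where it lies on the other strand), namely *Pirb* at chr7:3720333-3720632 (minus strand), *Cd300lf* at chr11:115133943-115134242 (minus strand) and *Cd300a* at chr11:114889791-114890090 (plus strand).
Pirb: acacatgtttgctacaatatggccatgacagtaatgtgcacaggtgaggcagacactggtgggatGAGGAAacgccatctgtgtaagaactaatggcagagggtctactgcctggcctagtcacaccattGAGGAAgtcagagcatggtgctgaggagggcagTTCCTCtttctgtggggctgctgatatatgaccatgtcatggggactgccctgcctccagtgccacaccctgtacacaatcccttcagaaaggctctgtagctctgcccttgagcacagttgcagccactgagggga
Cd300lf: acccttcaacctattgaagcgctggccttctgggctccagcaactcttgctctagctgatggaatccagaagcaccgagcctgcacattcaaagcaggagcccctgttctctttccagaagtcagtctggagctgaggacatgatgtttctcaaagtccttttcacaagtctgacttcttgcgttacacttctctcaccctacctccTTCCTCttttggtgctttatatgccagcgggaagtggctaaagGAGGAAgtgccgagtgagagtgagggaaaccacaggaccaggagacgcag
Cd300a: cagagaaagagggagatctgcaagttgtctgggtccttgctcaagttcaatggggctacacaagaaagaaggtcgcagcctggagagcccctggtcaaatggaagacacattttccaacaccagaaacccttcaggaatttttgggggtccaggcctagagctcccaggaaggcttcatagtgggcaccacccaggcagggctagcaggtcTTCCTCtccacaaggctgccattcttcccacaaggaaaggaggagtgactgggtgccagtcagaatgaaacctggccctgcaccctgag
*Pirb* held 3 matches, *Cd300lf* 2, and *Cd300a* and *Pilra* 1 each, while the promoters of the *Sirpb1* genes and *Cd47* held 0. Of 32851 promoters in the table, 28.3% held at least 1 match. AP-1 and NF-κB sites were at 0 in the promoters of the 8 genes, against 7.81% and 1.68% of all promoters. A match shows that the letters are there and not that a factor was bound.

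The other genes of these families were described from a list of 25 relatives, of which 20 were in the table and 13 were tested. All 13 were called higher, beside 6.56% of all tested genes, and their median log2 fold change was 2.83. Only 8 of them had at least 10 counts in every library, and the other 5 had fewer in at least 1 WT library, so that they passed the filter on low counts mainly through the other group. One of them, *Lilra6*, held 0, 2 and 2 counts in WT and 94, 51 and 75 in the cKO-labelled libraries. With WT set at a floor of 3 counts per library it was 22.3-fold higher, and the median was the same with that value. The fitted fold had a 95% interval of 21.4 to 129. The log2 fold changes of the 8 relatives with at least 10 counts in every library ran from 2.08 for *Pilrb2* to 2.93 for *Cd300lb*. *Lilrb4b*, of the related leukocyte immunoglobulin-like receptors, stood at 28.1 ± 2.64 CPM in WT and 204.6 ± 4.03 CPM in the other group (log2 fold change 2.86, adjusted p = 2.77e-16). Of its stretches, 94.5% were unique. In *Lilrb4a* 0% were unique, because each stretch also occurred in the annotated gene *Gm49339* or in *Lilrb4b*. *Cd300c2*, an activating member of its family, stood at 6.53 ± 0.858 and 46.4 ± 2.64 CPM (log2 fold change 2.83, adjusted p = 6.71e-14). *Pira2* rose by 2.80 on the log2 scale, with only 21.7% of its stretches unique. *Lilra5*, *Cd300c*, *Cd300e*, *Cd300ld2*, *Cd300ld4*, *Cd300ld5* and *Cd300lg* did not reach the count needed for a test.

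The receptors act through adapters, kinases and phosphatases, and 13 of these were listed and tested. Of these, 12 passed the test with higher levels, 10 of them by at least the log2 fold change of 1. The remaining 1 passed with a lower level. The median log2 fold change, 2.70, is the value of *Hcst*. This gene held only 11, 15 and 6 counts in WT and 46, 74 and 78 in the cKO-labelled libraries. With a minimum of 10 counts in every library, 12 partners were tested and 9 were called higher. At any size of change, 20.1% of all tested genes passed with higher levels and 19.2% with lower levels. With the fold limit, 6.56% were called higher. *Tyrobp*, the adapter of the SIRPβ1 proteins, stood at 10.4 ± 1.71 CPM in WT and 84.4 ± 5.37 CPM in the cKO-labelled libraries (log2 fold change 3.01, adjusted p = 2.15e-14). *Fcer1g*, the adapter of PIR-A, stood at 13.9 ± 1.17 and 91.1 ± 4.53 CPM (log2 fold change 2.71). The phosphatases recruited by the inhibitory members went opposite ways. *Ptpn6*, which encodes SHP-1 of blood cells, stood at 3.34 ± 0.770 and 31.0 ± 2.68 CPM (log2 fold change 3.23, adjusted p = 1.15e-12). *Ptpn11*, which encodes the widely expressed SHP-2, fell by 0.31 on the log2 scale, from 289.3 ± 11.8 to 233.2 ± 3.29 CPM (adjusted p = 7.95e-06). The kinases *Syk* and *Lyn*, which act downstream of these receptors, rose by 1.96 and 1.93.

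The ligands did not move in one direction. Of 8 tested ligands, 3 passed with higher levels, 3 with lower levels and 2 did not pass, with a median log2 fold change of 0.036, beside the 20.1% and 19.2% of all tested genes that passed in each direction. With the limit on the fold, 2 ligands were called higher and 0 lower, beside 6.56% and 4.64% of all tested genes. The class I genes *H2-D1* and *H2-K1* and their light chain *B2m*, which PIR-B binds, rose by 1.49, 0.61 and 1.18 on the log2 scale. *Thbs1*, which encodes the CD47 ligand thrombospondin-1, stood at 10321 ± 692 and 10203 ± 150 CPM (log2 fold change -0.017, adjusted p = 0.768). *Colec12*, *Rtn4* and *Angptl2* fell by 0.37, 0.37 and 0.72, and *Npdc1* did not pass (0.088, adjusted p = 0.168).

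**Figure D4:**
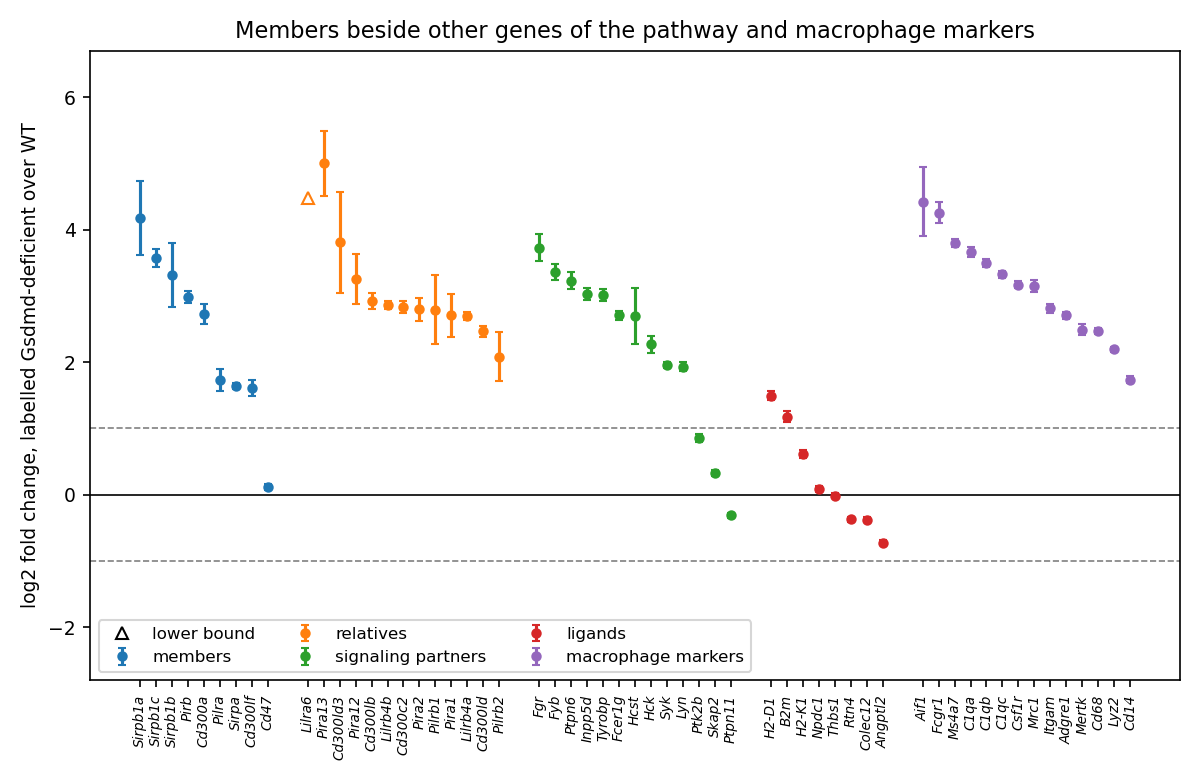
Log2 fold change (cKO-labelled over WT) of each tested gene of 5 lists, with bars of 1 SE and dashed lines at 1 and -1. The open triangle, marked as a lower bound, is *Lilra6* with WT set at 3 counts per library, which is a bound only if each read pair was counted once. Of 9 members, 8 lie above 1, as do all 13 relatives and all 14 macrophage markers, while the 8 ligands lie on both sides of 0.

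Macrophages are the cells in which most of these receptors are typically found, and 16 macrophage markers were examined beside them. Their summed level was 1197 to 1348 CPM in WT and 6380 to 6685 CPM in the cKO-labelled libraries. Each of the 14 that were tested was higher in every cKO-labelled library than in every WT library, as were 25.3% of tested genes. The other 2, *Cx3cr1* and *Cd163*, held at most 11 and 15 counts. All 14 tested markers were called higher, beside 6.56% of all tested genes, with a median log2 fold change of 3.16. The 13 with at least 10 counts in every library ran from 1.73 for *Cd14* to 4.25 for *Fcgr1*. All 14 exceeded *Sirpa* and *Cd300lf* in log2 fold change, 13 exceeded *Pilra*, 9 *Cd300a*, 8 *Pirb* and 4 *Sirpb1c*, while the folds of *Sirpb1a* and *Sirpb1b* rest on too few WT counts to be placed among them. The part of macrophage content in the members' differences was not tested, nor was that of the other cell types whose markers differed.

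Markers of other blood cells were low. Granulocyte markers summed to 1.11 to 1.58 CPM in WT and 6.01 to 7.19 in the other group, with *S100a9* and *Retnlg* at 0. The 2 that were tested were called higher, *S100a8* by 1.61 and *Csf3r* by 4.30 on the log2 scale. *Csf3r* held only 5, 7 and 10 counts in WT. Dendritic cell markers summed to 2.78 to 3.47 and 5.97 to 9.30 CPM, with *Flt3* at 0. Of 2 tested, *Itgax* was called higher (log2 fold change 2.86) and *Zbtb46* did not pass. Over all tested genes, 6.56% were called higher and 4.64% lower. Mast cell, T cell and B cell markers each summed to under 0.3 CPM in every library. Of 6 tested osteoclast markers, *Atp6v0d2* and *Acp5* were called higher (log2 fold changes 1.84 and 1.24) and *Mmp9* lower (-2.83). *Ctsk* passed with a lower level under the fold limit (-0.41). The summed level of the list was 143 to 152 CPM in WT and 151 to 181 CPM in the other group. Of 4 endothelial markers, *Tek*, *Cdh5* and *Pecam1* were called lower and *Kdr* higher, and their sums were 5.51 to 5.60 and 6.27 to 6.71 CPM. Osteoblast markers summed to 5571 to 6207 CPM in WT and 3609 to 3890 CPM in the other group. Nearly all of this sum was *Col1a1*, at 5802 ± 315 and 3650 ± 139 CPM. Of 5 tested, *Ibsp* was called higher (log2 fold change 2.01) and 0 lower. Under the fold limit, *Alpl* passed with a higher level (0.68). *Col1a1*, *Sp7* and *Runx2* passed with lower levels (-0.67, -0.59 and -0.21).

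For *Sirpa* and *Cd47*, the tested genes with the most similar pattern over the 6 libraries were found by the root mean square distance of centred log2 CPM. For *Sirpa* these were *Arl4c* at a distance of 0.0236, *Itga10* at 0.0354 and *Sh3bp2* at 0.0463. For *Cd47* they were *Trappc8* at 0.0176, *Nsmce2* at 0.0197 and *Nr2c2* at 0.0213. The distances describe only these libraries, which share one contrast.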

How the data were processed

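The study made bulk RNA libraries from osteocytes of WT and *Gsdmd*-deficient mice, 3 per genotype, with a directional kit. Per the labels, the authors aligned 150-base paired reads to mouse GRCm39 with HISAT2 2.0.5 and made counts per gene with featureCounts 1.55.0-p3, deposited without normalization, and the table also gives a gene length in bases. The strand setting is not given in the sources used here. Small counts were mostly even (63.4% to 65.7% of counts from 1 to 10), as when both mates of a pair are counted.

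From the deposited counts, edgeR 4.0.16 (R 4.3.3) was run by its quasi-likelihood test after filterByExpr and TMM, with no covariate beside genotype, and p-values were adjusted by Benjamini-Hochberg over 17146 genes. CPM used TMM-scaled library sizes. Ratios were tested by exact permutation. The procedure was tested on simulated data. Floors (3 counts) cover counting error only and assume that each read pair was counted once. The mostly even small counts put that assumption in doubt. If both mates were counted, the floor is too low and a fold taken from it is not a safe lower bound. Alternatives were DESeq2 1.42.0, limma 3.58.1 with voom, other scalings and filters, halved counts, a replicate block and leaving out each library. Named genes were the 9 members, list genes chosen by role, *Gsdmd*, and the 3 nearest genes each of *Sirpa* and *Cd47*. Sex-linked genes, an overlapping gene and neighbours of the *Sirpb1* copies were named outside that rule, with values known. The members and lists were chosen with earlier results of these data known. Transcript and coding sequences came from GENCODE M39, aligned with Biopython 1.88.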

Additional observations from a re-analysis of the deposited data

How the results depend on the processing

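The 8 members called higher stayed at 8 under each alternative but one, namely a minimum of 10 counts in every library, where 6 were called because *Sirpb1a* and *Sirpb1b* were no longer tested. Under that minimum 8 relatives were tested and 8 called, against 13. With a replicate block 8 members, 13 relatives, 10 signaling partners and 2 ligands were called higher. The replicate numbers were not found to pair the libraries, since same-numbered libraries correlated at -9.23e-05, 0.00116 and -0.0136. The ratios of *Sirpa* to *Cd47*, *Sirpb1* copies to *Sirpa* and *Cd300lf* to *Cd300a* had unchanged values in the block, with an exact sign-flip p of 0.25, the smallest possible. Over all genes the block called 1087 higher and 772 lower, against 1124 and 796. Leaving out each library kept 8 members called in every case, with log2 fold changes of 1.61 to 1.66 for *Sirpa*, 2.86 to 3.11 for *Pirb* and 2.53 to 3.03 for *Cd300a*. *Cd47* changed its side of the threshold under library size only and under no filter beyond 1 count, as given above. The low WT counts of *Sirpb1a* and *Sirpb1b* limit the precision of their folds. Differences between groups cannot be told apart from sex.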

Other observations

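*Gm5150*, a SIRP-like gene that lies near the *Sirpb1* copies, was chosen after its values were seen. It held 2, 10 and 2 counts in WT and 137, 103 and 124 counts in the cKO-labelled libraries. The WT libraries were all low and the groups did not overlap, with a log2 fold change of 4.75 (SE 0.44, adjusted p = 8.64e-08, edgeR's quasi-likelihood test). Its coding sequence was 80.7% identical to that of *Sirpb1a* over 881 aligned bases, and 100% of the 150-base stretches of its transcript occurred in no other gene. The other unlisted neighbour, *Gm9733*, held 0, 6 and 0 counts in WT and 0, 0 and 7 in the other group, which overlapped, and had too few counts for a test.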
